A study of Mus musculus with 12 samples.

Results

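The Zfp genes are the mouse genes named for a zinc finger protein and a number. Of the 22236 gene rows measured in the hippocampus, 351 had a symbol made of Zfp, a number and at most 1 letter. The 309 of these with a mean expected count of at least 100 over the 12 libraries are the members described here, and the other 42 fell below that level. All 309 members passed the filter on low counts that left 15853 genes for testing. The libraries came from male mice aged 3 to 5 months of 2 inbred strains, C57BL/6J (B6) and DBA/2J (D2). Each mouse received adeno-associated virus (AAV) in the hippocampus on both sides, carrying a short hairpin RNA against Hp1bp3, which encodes a chromatin protein (KD), or a scrambled hairpin (Ctrl). There were 3 libraries in each of the 4 groups, B6 Ctrl, B6 KD, D2 Ctrl and D2 KD, each from whole hippocampus with its neurons, glia and vessels. All 12 mice were therefore injected, and no uninjected animal serves as a control.

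Most Zfp proteins carry C2H2 fingers, short loops that hold a zinc ion between a pair of cysteines and a pair of histidines and that read a few bases of DNA each. Many also carry a KRAB box, a domain that recruits the co-repressor TRIM28, the histone methyltransferase SETDB1 and HP1 proteins, and so places repressive chromatin on transposable elements and some genes. KRAB zinc finger genes lie in clusters that grew by tandem duplication and differ between species and between mouse strains. Other Zfp proteins have no KRAB box and serve as activators, RNA-binding proteins or enzymes.

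Before the members, the target and the libraries were examined. Hp1bp3 was at 308, 294 and 310.1 CPM in B6 Ctrl (counts scaled to the size of the library) and at 185, 182 and 259 CPM in B6 KD. In D2 it was at 226, 215 and 234 CPM in Ctrl and at 177, 163 and 229.5 CPM in KD. The library labelled D2 KD 3 thus lay inside the D2 Ctrl range. The knockdown calls in each strain and averaged over strains are given with and without it. Other knockdown values, among them the counts without overlap and the interaction differences, include it unless stated. With treatment exchanged within strains, the KD mean was 65.3 CPM below Ctrl (exact 2-sided permutation p = 0.015, smallest possible 0.005). Library totals ran from 18.2 to 39.4 M expected counts, and the members took 0.748% to 0.948% of a library. The summed level of 11 choroid plexus markers ran from 76.4 to 5375 CPM and spread widely within every group. Of the 12 interferon response genes all 12 rose in B6 KD, where their sum was 447 to 1190 CPM against 72.04 to 89.4 CPM in B6 Ctrl. The sum of 8 microglial markers was 533 to 869 CPM in B6 KD and 388 to 449 CPM in B6 Ctrl, and that of 8 neuronal markers was 6157 to 8065 CPM and 7793 to 8638 CPM. The sums of 6 astrocyte and 5 endothelial markers overlapped between the B6 groups, at 5462 to 7265 and 194 to 221 CPM in KD and 4584 to 5488 and 164 to 207 CPM in Ctrl. The 5 T lymphocyte markers summed to 1.28 to 6.88 CPM in B6 KD and 0.61 to 1.27 CPM in B6 Ctrl, with Cd3e, Cd3g and Cd2 at 0 in some libraries. None of the 8 microglial and none of the 8 neuronal markers passed the test in B6, and 1 of the 6 astrocyte markers did, the water channel Aqp4 (1.202 ± 0.19 (SE, edgeR adjusted p = 0.0326)), higher in KD. How far these lists bear on the knockdown results of the members was not tested.

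In the GENCODE annotation of the reference genome (GRCm38, the B6 sequence), 307 members had a protein and the other pair, Zfp783 and Zfp939, did not. Translation of the coding sequences gave a median of 10 C2H2 fingers per member and a highest number of 36 in Zfp142. A KRAB box was found in 165 members and not in 142. A total of 10 members had no finger of this form, among them Zfp36, which binds RNA through fingers of another kind. The repeated unit is printed for 4 members with some of the largest strain differences, as DNA of the coding strand in GRCm38. Each line is 28 codons, a finger and the linker to the next one, taken as the first such unit in the longest protein, and the capitals mark the codons of the 2 cysteines and 2 histidines.
Zfp871, chr17:32775450-32775533, minus strand: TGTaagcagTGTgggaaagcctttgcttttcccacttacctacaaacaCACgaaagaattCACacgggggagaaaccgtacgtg
Zfp445, chr9:122852886-122852969, minus strand: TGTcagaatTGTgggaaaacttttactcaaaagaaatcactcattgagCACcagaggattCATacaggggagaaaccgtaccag
Zfp652, chr11:95763556-95763639, plus strand: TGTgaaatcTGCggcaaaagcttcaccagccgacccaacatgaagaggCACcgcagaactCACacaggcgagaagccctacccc
Zfp81, chr17:33334834-33334917, minus strand: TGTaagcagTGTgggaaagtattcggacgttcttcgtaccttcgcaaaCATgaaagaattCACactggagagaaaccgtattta

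The 84 bases were most alike between Zfp871 and Zfp81, which lie in 1 cluster on chromosome 17, at 63 identical bases or 75%. Zfp652 and Zfp81 were least alike of the 6 pairs, with 43 identical bases. Where genes are more alike than these, over the whole length of a read, a short read can fit more than 1 gene. For each member the share of its 75-base words also found in transcripts of another gene was therefore counted. The transcripts were those of GRCm38, the B6 sequence, so sharing in the D2 genome was not measured. The share was 0 for 189 members, Zfp871 and Zfp81 among them. It was at least 20% for 15, whose counts are uncertain for this reason.

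Levels of the members ranged from 3.20 to 395 CPM, with a median of 17.005 CPM over all libraries. Per kilobase of exon, the highest mean level was that of Zfp488, a transcription factor of oligodendrocyte maturation, at 86.4 CPM per kb. It was followed by Zfp365, a neuronal and centrosomal protein, at 75.9 CPM per kb and by the small protein Zfp706 at 47.5 CPM per kb. The next levels were 26.5 CPM per kb for Zfp106, which binds RNA and maintains motor neurons, 19.4 for Zfp91, a ubiquitin ligase, and 19.3 for Zfp207, a spindle assembly protein. None of these 6 has a KRAB box, and the KRAB members had a median level of 13.8 CPM against 25.6 CPM in the others. At the level that defined the members, Zfp677, Zfp369 and Zfp119a had the lowest mean counts inside, at 105, 101 and 100.4, and Zfp524, Zfp184 and Zfp647 the highest outside, at 97.3, 94.7 and 88.1.

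To determine how the 2 strains differ in these genes, D2 was compared with B6 over both treatments, 6 libraries against 6. Of the 309 members 86 differed (edgeR adjusted p under 0.05), which is 27.8% against 21.3% of all genes tested. Among the members 60 were higher in D2 and 26 lower, or 19.4% and 8.41%, whereas over all genes 8.64% were higher in D2 and 12.7% lower. The 48 members for which all 6 D2 libraries lay above all 6 B6 libraries were 15.5% of the members against 5.51% of all genes, and the 18 members in the opposite order were 5.83% against 9%. The median difference of the members was 0.08 on the log2 scale, against 0.02 over all genes. In whole tissue a higher level cannot be told apart from more cells of a type that uses the gene. Reads of each mouse were aligned to the genome of its own strain, so strain and alignment genome cannot be told apart either.

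The members were then divided by the KRAB box. Of the 165 KRAB members 48 were higher in D2 and 15 lower, or 29.1% and 9.09%. Of the 142 members with no KRAB box 12 were higher and 11 lower, or 8.45% and 7.75%. The shares among all genes were 8.64% and 12.7%, so members with no box were close to all genes in the share higher. All 20 members that were more than 1 log2 unit higher in D2 had a KRAB box, whereas the 6 that were more than 1 unit lower were evenly divided, 3 with a box and 3 without. These counts of members are a description and were not tested against each other. The number of all genes beyond 1 log2 unit is not given here. The counts of members called were similar without the 15 members that share at least 20% of their 75-base words. They were then 39 higher and 14 lower of 151 KRAB members and 12 higher and 11 lower of 141 others. The 20 KRAB members more than 1 log2 unit higher in D2 were 15 without those, and 11 of the 127 KRAB members that share under 5% of their words. Of the 15 members that share at least 20%, 9 were higher and 1 lower. Words were compared in the B6 sequence only, so members whose reads are uncertain only in D2 were not set aside. Membership rests on a mean count of at least 100 over both strains, so a member low in 1 strain can enter through the other. Among the 20 members named above as higher in D2, the lowest mean counts were 112.0 for Zfp78 and 119.9 for Zfp951. Among the 6 in the other direction, the lowest was 143.0 for Zfp618. KRAB members had the lower median level, 13.8 against 25.6 CPM. How far the rule on mean counts bears on the KRAB shares was not tested.

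**Figure D1:**
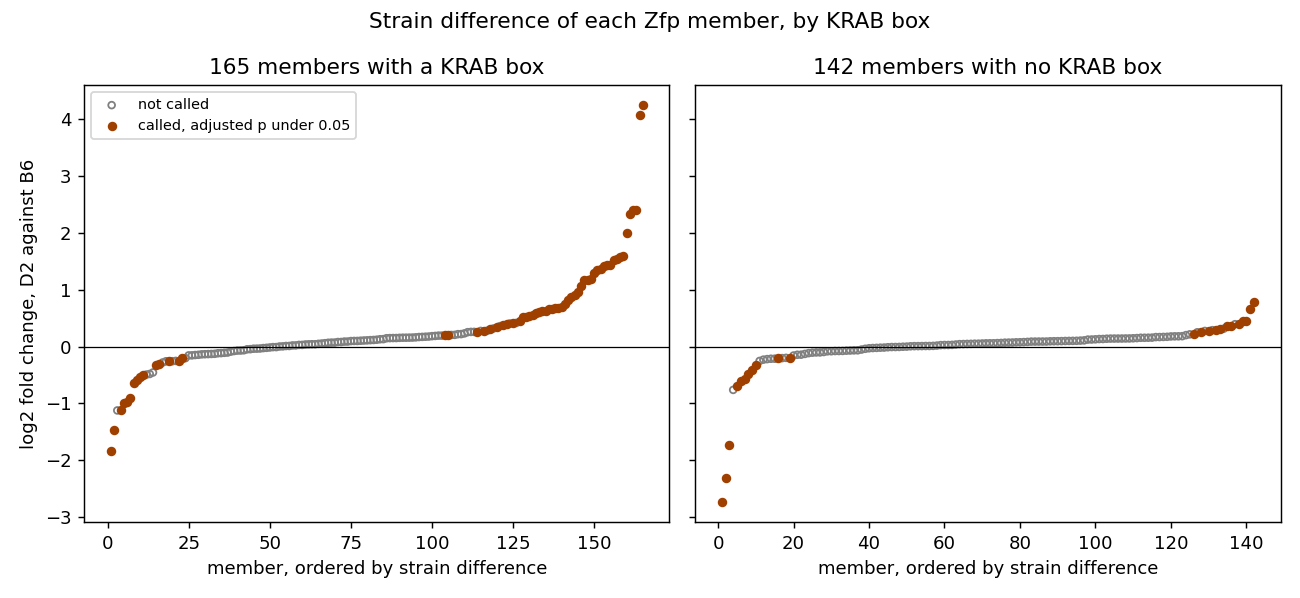
Log2 fold change of D2 against B6 (vertical axis) for each member in rising order (horizontal axis), in 165 members with a KRAB box on the left and 142 without on the right, with filled points for an adjusted p under 0.05. The right-hand tail rises above 1 only in the KRAB panel, where it holds 20 members, and the lowest values, down to -2.74, are in the panel without.

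By number of fingers, 26 of the 94 members with at least 13 fingers were higher in D2 and 5 lower (27.7% and 5.32%). Over all genes these shares were 8.64% and 12.7%. The 118 members with 8 to 12 fingers had 24 higher and 12 lower (20.3% and 10.2%). The 65 members with 3 to 7 had 6 and 6 (9.23% each), and the 30 members with at most 2 had 4 and 3 (13.3% and 10%). The classes were not tested against each other. Finger number and the KRAB box go together, with a median of 12 fingers in KRAB members and 7 in the others.

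Zfp871 (ENSMUSG00000024298, chr17:32765496-32788287, minus strand), a KRAB protein with 15 fingers, had the largest difference of all members. Its level was 4.96, 7.61 and 12.2 CPM in B6 Ctrl and 9.08, 4.21 and 3.35 CPM in B6 KD. In D2 it was 136, 164 and 109 CPM in Ctrl and 113, 127 and 126 CPM in KD. Every D2 library was therefore far above every B6 library, and the mean was 18.7 times as high, a log2 difference of 4.25 ± 0.29 (SE, adjusted p = 8.58e-07). None of its 75-base words occurred in another gene in the B6 sequence. Zfp445 (ENSMUSG00000047036, chr9:122844529-122866006, minus strand) encodes a KRAB protein that, together with ZFP57, keeps imprinted genes methylated. It was at 25.1, 31.1 and 72.4 CPM in B6 Ctrl, 52.8, 42.4 and 15.5 CPM in B6 KD, 245, 251 and 165 CPM in D2 Ctrl and 165, 161 and 223 CPM in D2 KD. The strains did not overlap, at a log2 difference of 2.34 ± 0.33 (SE, adjusted p = 0.000342), but the B6 libraries themselves spread from 15.5 to 72.4 CPM. Zfp57 was at 7.45 to 10.1 CPM in B6 and 7.41 to 10.3 CPM in D2, and it did not pass the test.

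Zfp937 (ENSMUSG00000060336, chr2:150218073-150240725, plus strand) had the smallest adjusted p of the strain differences. Over 6 libraries it was at 5.04 at the lowest, 5.97 at the median and 7.54 at the highest CPM in B6 and at 29.5 at the lowest, 32.6 at the median and 34.5 at the highest CPM in D2, a log2 difference of 2.40 ± 0.099 (SE, adjusted p = 1.46e-08). It shares 18.6% of its words with other genes. Zfp612 (ENSMUSG00000044676, chr8:110079746-110092741, plus strand), with 16 fingers and no shared words, was at 13.4 at the lowest, 17.6 at the median and 22.4 at the highest CPM in B6 and at 53.9 at the lowest, 70.5 at the median and 88.7 at the highest CPM in D2, a difference of 1.99 ± 0.12 (SE, adjusted p = 4.62e-07). Zfp955a (2.40 ± 0.11 (SE, adjusted p = 4.04e-08)) shares 37.1% of its words, and Zfp825 (1.57 ± 0.099 (SE, adjusted p = 4.73e-07)) shares 17.02%. For another pair the sequences are nearly or wholly shared, so that the gene that gave the reads is uncertain. Zfp935, with 100% shared, was at 4.33 to 6.05 CPM in B6 and 14.2 to 18.7 CPM in D2. Zfp781, with 94.4% shared, was at 0 in 3 B6 libraries and at 6.18 to 19.4 CPM in D2. All of these 8 members carry a KRAB box.

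In the other direction, Zfp652 (ENSMUSG00000075595, chr11:95712673-95835115, plus strand) differed most. It encodes a DNA-binding repressor with no KRAB box, and 11.4% of its 75-base words occur in other genes. It was at 80.8, 86.7 and 105 CPM in B6 Ctrl, 85.8, 86.9 and 69.8 CPM in B6 KD, 16.5, 17.6 and 6.22 CPM in D2 Ctrl and 9.22, 8.29 and 19.4 CPM in D2 KD. The B6 mean was 6.66 times that of D2, a log2 difference of -2.74 ± 0.28 (SE, adjusted p = 2.50e-05). Zfp451 (ENSMUSG00000042197, chr1:33761545-33814595, minus strand), a ligase that attaches SUMO to other proteins, was at 62.6 at the lowest, 66.03 at the median and 81.9 at the highest CPM in B6 and at 17.3 at the lowest, 20.8 at the median and 23.1 at the highest CPM in D2, a difference of -1.74 ± 0.087 (SE, adjusted p = 7.14e-08). Zfp618 (ENSMUSG00000028358, chr4:62965573-63139708, plus strand) was low in both strains, at 4.91 to 8.82 CPM in B6 and 0.778 to 2.75 CPM in D2 (-2.30 ± 0.28 (SE, adjusted p = 9.60e-05)). The KRAB genes Zfp81 (-1.84 ± 0.29 (SE, adjusted p = 0.000614)), Zfp931 (-1.46 ± 0.089 (SE, adjusted p = 3.56e-07)), Zfp101 (-1.11 ± 0.098 (SE, adjusted p = 7.04e-06)), Zfp933 (-0.98 ± 0.10 (SE, adjusted p = 3.29e-05)) and Zfp758 (-0.97 ± 0.079 (SE, adjusted p = 3.92e-06)) completed the 8 largest differences in this direction. Zfp931 shares 12.65% of its words with other genes. In none of the 8 did a D2 library reach the lowest B6 library.

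**Figure D2:**
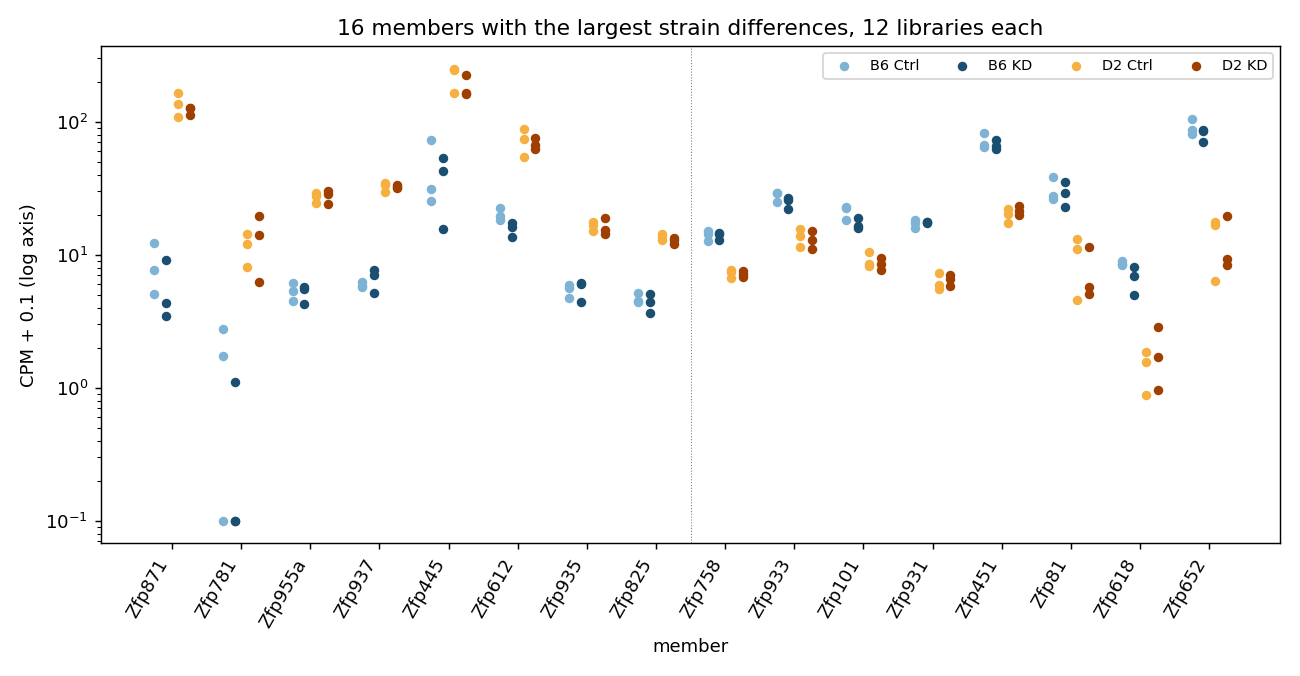
Level of 16 members in each of the 12 libraries, as CPM + 0.1 on a log axis, with the 8 largest differences higher in D2 left of the dotted line and the 8 largest lower in D2 right of it. Each point is 1 library, colours give the 4 groups, and Ctrl and KD libraries of a strain lie together while the strains are apart, from Zfp871 (4.25) to Zfp652 (-2.74).

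These strain differences were measured in both treatments. Of 309 members, 62 differed between D2 and B6 in the Ctrl libraries (20.1% against 14% of all genes), 41 higher and 21 lower. In the KD libraries, which are other mice, 66 differed (21.4% against 15%), 47 higher and 19 lower. All 62 members called in Ctrl had the same direction in KD, and 52 were called in both, or 83.9% of the Ctrl calls and 78.8% of the KD calls. For 59 of the 62 the 3 D2 KD libraries did not overlap the 3 B6 KD libraries, in the direction seen in Ctrl, which is 95.2% against 88.7% of the 2216 genes of any kind called in Ctrl. Over all genes, called or not, 28.2% were without overlap in either direction. The exceptions were Zfp788, Zfp874a and Zfp30. For Zfp871 the log2 difference was 4.05 in Ctrl and 4.45 in KD, and for Zfp652 it was -2.76 and -2.72.

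The members lay in 13 clusters of at least 5, with gaps under 500 kb, that held 125 of them, and the rest lay alone or in smaller groups. The cluster with most members, 18 on chr17:21008903-23599487, had 1 member higher in D2, Zfp760 (0.62), and 3 lower, Zfp758 (-0.97), Zfp40 (-0.54) and Zfp13 (-0.33). The other 14 did not pass the test. The next in size were 14 members each on chr13:67038596-67827002 and chr7:29768552-30169750. On chromosome 13, Zfp58 (0.56) and Zfp759 (0.38) were higher in D2 and Zfp738 (-0.91) and Zfp874a (-0.64) lower, and Zfp58 shares 44.8% of its words. On chromosome 7, Zfp14 (0.81), Zfp84 (0.75) and Zfp74 (0.30) were higher and Zfp420 (-0.48), Zfp30 (-0.31) and Zfp940 (-0.25) lower. Within each of these 3 clusters, called members were found on both sides. The shares called were 22.2% on chromosome 17, 28.6% on chromosome 13 and 42.9% on chromosome 7, against 21.3% of all genes. The largest cluster was thus close to the share of all genes.

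Another cluster, of 13 members on chr17:32765496-33631779, was chosen after its values were seen. In it 6 members were higher in D2 and 2 lower (46.2% and 15.4%), and 7 of those 8 differed by over 1 log2 unit. Beside Zfp871 and Zfp955a these were Zfp955b (1.44 ± 0.26 (SE, adjusted p = 0.00168)), which shares 22.2% of its words and is uncertain, as is Zfp955a, Zfp563 (1.43 ± 0.13 (SE, adjusted p = 8.43e-06)), Zfp811 (1.36 ± 0.11 (SE, adjusted p = 3.22e-06)), Zfp81 and Zfp101, and the eighth was Zfp952 (0.26). Zfp81 and Zfp101, both lower in D2, are next to each other. By size of group, the 125 members in clusters of at least 5 had 22 higher in D2 and 12 lower (17.6% and 9.6%), the 76 in groups of 2 to 4 had 24 and 2 (31.6% and 2.63%) and the 108 that stood alone had 14 and 12 (13% and 11.1%). Over all genes these shares were 8.64% and 12.7%, and the 3 sizes were not tested against each other.

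**Figure D3:**
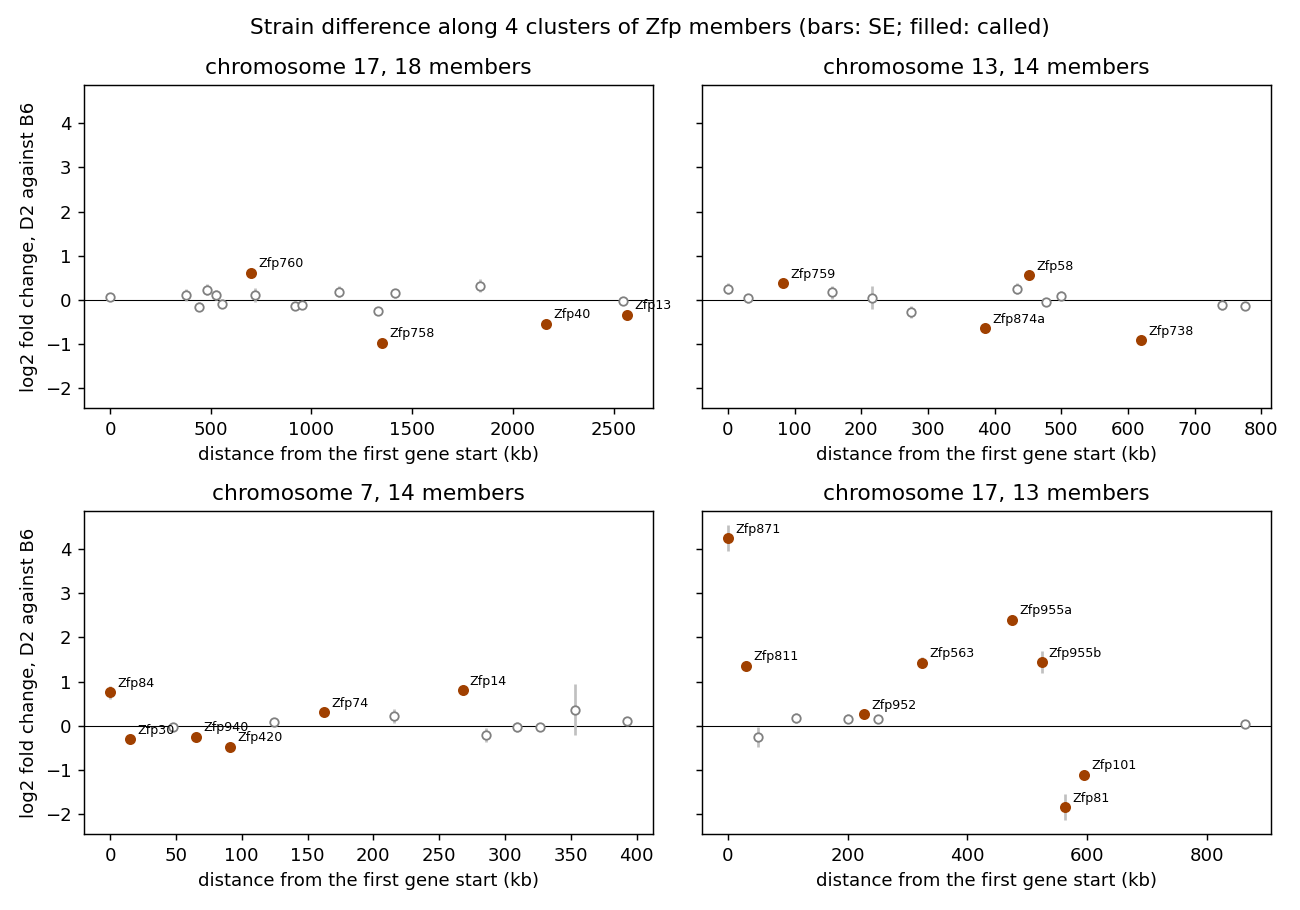
Log2 fold change of D2 against B6 with its SE (vertical axis) against the distance of each gene's start from that of the first gene in kb (horizontal axis), for 4 clusters of members, with filled and named points for an adjusted p under 0.05. The 3 clusters of 14 or 18 members stay between -1 and 1, and the cluster of 13 on chromosome 17 runs from -1.84 (Zfp81) to 4.25 (Zfp871).

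Of the 20 members fixed for a known role, 4 differed between the strains beside 16 that did not pass the test, a share of 20% that lies near the 21.3% of all genes. Zfp445 is described above. Zfp809, a KRAB protein that silences murine leukaemia proviruses, was at 3.67, 5.01 and 6.36 CPM in B6 Ctrl, 5.99, 5.13 and 3.75 CPM in B6 KD, 11.4, 11.8 and 7.56 CPM in D2 Ctrl and 7.83, 7.39 and 12.3 CPM in D2 KD. All D2 libraries were above all B6 libraries, at a log2 difference of 0.96 ± 0.20 (SE, adjusted p = 0.00459). Zfp335, a regulator of neural progenitors, was higher in D2 (0.28 ± 0.071 (SE, adjusted p = 0.0160)) and Zfp207 lower (-0.20 ± 0.056 (SE, adjusted p = 0.0270)), both with overlapping strains. Zfp568, a repressor of a placental transcript of Igf2, was at 4.36 to 6.89 CPM in B6 and 4.93 to 9.04 CPM in D2. Among the 16 were also Zfp36, which speeds the decay of inflammatory mRNAs, at 4.21 to 19.4 CPM in B6 and 3.96 to 7.41 CPM in D2, and the GC-box binding Zfp148 and Zfp281. Zfp532, Zfp592 and Zfp687, partners in a chromatin complex, did not pass either, nor did Zfp346, which binds double-stranded RNA. The same holds for Zfp91, Zfp106, Zfp57 and Zfp711, the last linked to intellectual disability, and for Zfp423, Zfp462, Zfp521 and Zfp804a. Outside this list is Zfp488, which shares 10.3% of its words with other genes. It was at 338, 292 and 258 CPM in B6 Ctrl, 245, 236 and 271 CPM in B6 KD, 444, 464 and 535 CPM in D2 Ctrl and 464, 467 and 445 CPM in D2 KD. It was higher in every D2 library (0.78 ± 0.078 (SE, adjusted p = 1.81e-05)). The sum of 6 oligodendrocyte markers was 3928 to 5792 CPM in B6 Ctrl and 2680 to 4818 CPM in D2 Ctrl, which overlap. In KD this sum was 4046 to 4974 CPM in B6 and 2624 to 3233 CPM in D2. How far oligodendrocyte content bears on the level of Zfp488 was not tested.

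Knockdown of Hp1bp3 was next compared with the scrambled hairpin in B6, 3 libraries against 3. Only 2 members passed the test, 0.647% of them against 2.64% of all genes. Zfp521 (ENSMUSG00000024420), a many-fingered transcription factor of neural progenitors, was at 10.9, 11.05 and 11.3 CPM in B6 Ctrl and 17.9, 17.5 and 22.9 CPM in B6 KD. All KD libraries were above all Ctrl libraries, a log2 difference of 0.81 ± 0.14 (SE, adjusted p = 0.0344). In D2 it was at 13.5, 15.9 and 16.4 CPM in Ctrl and 17.6, 14.6 and 12.9 CPM in KD, which overlap. Zfp772 (ENSMUSG00000066838), a KRAB protein, was at 17.96, 15.4 and 16.9 CPM in B6 Ctrl and 12.8, 13.2 and 11.8 CPM in B6 KD, a log2 difference of -0.41 ± 0.094 (SE, adjusted p = 0.0473) without overlap. In D2 it was at 19.5, 19.4 and 17.7 CPM in Ctrl and 19.3, 18.02 and 17.3 CPM in KD. Next to these, Zfp804a, from a locus linked to schizophrenia, was at 28.9, 24.9 and 34.2 CPM in B6 Ctrl and 42.4, 37.05 and 55.8 CPM in B6 KD (0.62 ± 0.15 (SE, adjusted p = 0.0541)), which did not pass. Both calls lay close to the threshold. With a choroid plexus score in the model Zfp521 had an adjusted p of 0.0586 and Zfp772 of 0.0883, and with the library total 0.0575 and 0.0726. The log2 differences stayed close, at 0.75 and -0.38 with the score and 0.81 and -0.41 with the total. Neither covariate fit called any gene in B6 (0 of 15853). Leaving out B6 Ctrl 1 gave adjusted p-values of 0.178 and 0.189, B6 Ctrl 3 gave 0.125 and 0.145, B6 KD 1 gave 0.0690 and 0.0863, and B6 KD 2 gave 0.0985 and 0.111. In each of these fits no gene of any kind passed in B6 (0%). For Zfp521 the call was also lost without B6 Ctrl 2 (0.0535), D2 Ctrl 1 (0.0532) and D2 Ctrl 2 (0.0525). For Zfp772 it was also lost without B6 KD 3 (0.0576), D2 Ctrl 1 (0.0637), D2 Ctrl 2 (0.0625), D2 KD 1 (0.0568) and D2 KD 2 (0.0536). Of all genes 0% passed in B6 without D2 Ctrl 1, 0.28% without D2 Ctrl 2 and 1.48% without B6 Ctrl 2. The shares were 0.773% without D2 KD 1, 2.98% without D2 KD 2 and 4.94% without B6 KD 3. Both calls remained in the fit that omitted the library labelled D2 KD 3, at adjusted p-values of 0.0187 and 0.0457. DESeq2 called 11 members, 2 higher and 9 lower, against 10.6% of all genes.

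The members as a whole leaned downwards in B6 KD by a small amount. A negative log2 difference was found for 219 of 309 members (70.9%) and for 49.6% of all genes, and the medians were -0.09 and 0.00. At an unadjusted p under 0.05, which 20.6% of all genes reached, 27 members were lower in KD and 4 higher, 8.74% and 1.29%, against 8.72% and 11.9% of all genes. The share of lower members was thus close to that of all genes, and the share of higher members was smaller. The 56 members for which all KD libraries lay below all Ctrl libraries were 18.1% against 14%, and the 6 in the opposite order 1.94% against 13.9%. The lean was found in KRAB members (median -0.08) and in the others (-0.09). Over the 13 clusters of at least 5 members the median ran from -0.32 to 0.01 and was below 0 in 12, and differences between clusters were not tested.

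Single libraries stood apart for these genes. B6 KD 3 was the lowest of the 6 B6 libraries for 163 members, 52.8% of them against 27.1% of all genes. B6 Ctrl 3 was the highest for 123 members, 39.8% against 18.3%. In D2, Ctrl 2 was highest for 94 members (30.4% against 16.4%) and Ctrl 3 lowest for 106 (34.3% against 18.6%). Without B6 KD 3 the median in B6 was -0.06, against -0.03 over all genes, and without B6 Ctrl 3 it was -0.07, against 0.00. Leaving out any of the 12 libraries in turn gave medians from -0.16 to -0.06, all below 0. The choroid plexus sum was 5275 CPM in B6 KD 3 and 164 CPM in B6 Ctrl 3. It was 5261 CPM in D2 Ctrl 3 and 4170 CPM in D2 Ctrl 2. B6 KD 2, at 4346 CPM, was lowest for 14.2% of the members, against 17.9% of all genes, and B6 Ctrl 1, at 86.2 CPM, was highest for 16.5%, against 18.3%. The library labelled D2 KD 3 had the highest sum, 5375 CPM, and was lowest in D2 for 7.12% of the members, against 12.3%. With the choroid plexus score in the model the median in B6 was -0.06. Whether choroid plexus content bears on which library was extreme was not tested.

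Zfp382, chosen after its values were seen, shows the spread between libraries of a group. It was at 4.48, 6.23 and 13.7 CPM in B6 Ctrl, 9.56, 7.06 and 1.69 CPM in B6 KD, 13.5, 15.2 and 2.67 CPM in D2 Ctrl and 3.70, 3.60 and 16.1 CPM in D2 KD. The same libraries were extreme in B6 for Zfp445 and Zfp652, with B6 Ctrl 3 highest and B6 KD 3 lowest in each.

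**Figure D4:**
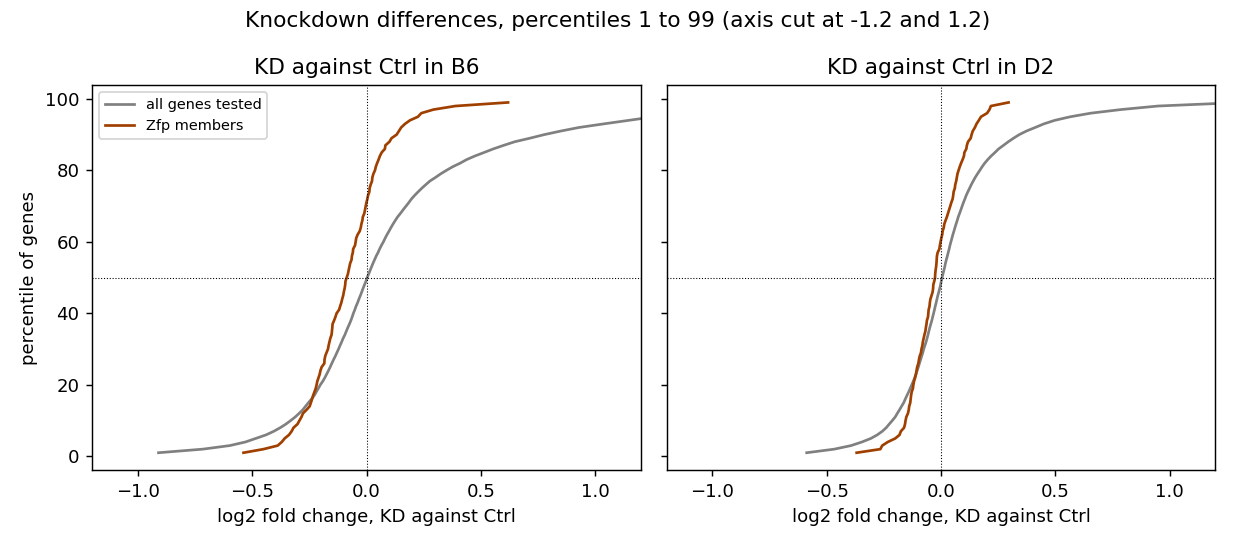
Percentile of genes (vertical axis) against the log2 fold change of KD against Ctrl (horizontal axis, ending at -1.2 and 1.2), in B6 on the left and D2 on the right, for the 309 members and all 15853 genes tested. The line of the members crosses the 50th percentile at -0.09 in B6 and -0.03 in D2, and it is steeper than that of all genes.

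In D2 no member passed the test, nor did any gene (0% of those tested), and 4 members (1.29%) had an unadjusted p under 0.05, against 2.85% of all genes. Once the library labelled D2 KD 3 had been dropped, 10 members (3.24%) reached this p, 5 higher and 5 lower, against 7.69% of all genes, and again no member passed the adjusted test. Over all members 187 of 309 (60.5%) were below 0 against 48.8% of all genes with a median of -0.03 against 0.00. The median was -0.05 without the library labelled D2 KD 3 and 0.01 without D2 Ctrl 2. The smallest p was that of Zfp771 (ENSMUSG00000054716), which has 8 fingers and no KRAB box. It was at 14.4, 14.8 and 14.2 CPM in D2 Ctrl and 10.7, 9.84 and 10.1 CPM in D2 KD, without overlap (-0.50 ± 0.11 (SE, adjusted p = 1.00)). In B6 it was at 13.2, 10.7 and 11.7 CPM in Ctrl and 8.94, 11.1 and 10.3 CPM in KD, with overlap. Zfp810 was at 16.9, 19.6 and 16.96 CPM in D2 Ctrl and 21.4, 21.8 and 20.7 CPM in D2 KD (0.26 ± 0.083 (SE, adjusted p = 1.00)). Zfp839 (0.25) and Zfp9 (0.16) had the other small p-values, both higher in KD with an adjusted p of 1. The KD and Ctrl libraries did not overlap for 10 members lower and 9 higher in D2 KD, 3.24% and 2.91% against 3.03% and 2.93% of all genes.

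Averaged over the strains, edgeR called no member and no gene (0%), at 24 members lower and 5 higher at an unadjusted p under 0.05, together 9.39% against 19.2% of all genes. DESeq2 called 8 members, 2 higher and 6 lower, against 7.83% of all genes, and limma-voom none. The smallest adjusted p-values were those of Zfp771 (-0.37 ± 0.080 (SE, adjusted p = 0.0606)), Zfp521 (0.39 ± 0.10 (SE, adjusted p = 0.0803)), Zfp239 (-0.28 ± 0.074 (SE, adjusted p = 0.0888)) and Zfp772 (-0.23 ± 0.066 (SE, adjusted p = 0.101)). Omitting the library labelled D2 KD 3, edgeR called 4 members, Zfp771, Zfp521, Zfp740 and Zfp142, which is 1.29% against 4.97% of all genes. Without B6 KD 3 it called 2, Zfp771 and Zfp239, or 0.647% against 2.5%. Zfp239 was at 37.2, 34.9 and 37.9 CPM in B6 Ctrl, 27.6, 24.8 and 32.4 CPM in B6 KD, 37.8, 32.9 and 32.1 CPM in D2 Ctrl and 29.7, 29.4 and 31.7 CPM in D2 KD. It was 1 of 3 members whose KD and Ctrl libraries did not overlap in the same direction in both strains, with Zfp235, also lower, and Zfp90, higher. Over all genes 1.87% were so ordered.

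**Figure D5:**
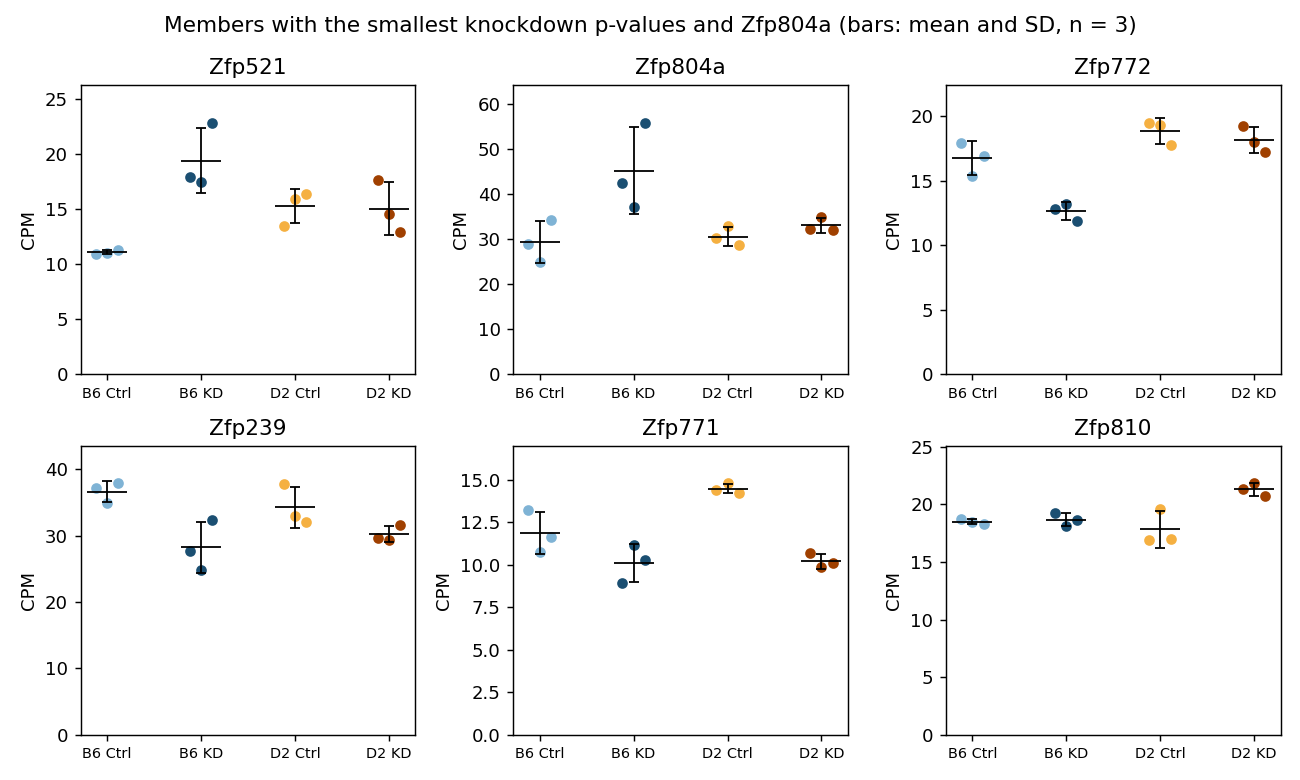
Level in CPM (vertical axes from 0) of 6 members in each of the 4 groups, 3 libraries each, with the mean and SD as bars. Zfp521 and Zfp804a lie higher and Zfp772 lower in B6 KD, Zfp771 lies lower in D2 KD, and Zfp810 higher in D2 KD.

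No member had a knockdown difference that itself differed between the strains (strain by treatment interaction, 0% of genes called), and 6 members (1.94%) reached an unadjusted p under 0.05, against 5.91% of all genes. The smallest p was that of Zfp521, whose difference was 0.81 in B6 and -0.02 in D2 (interaction -0.83 ± 0.20 (SE, adjusted p = 0.822)). Zfp354b (0.69 ± 0.24 (SE, adjusted p = 0.822)), Zfp772 (0.36 ± 0.13 (SE, adjusted p = 0.822)) and Zfp93 (0.38 ± 0.15 (SE, adjusted p = 0.822)) followed, each lower in B6 KD. The response of Zfp521 and Zfp772 to knockdown is therefore not shown to differ between B6 and D2.

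Of the 26 proteins listed as partners of KRAB zinc fingers in repression, 24 had a row and all 24 passed the filter. In D2 against B6, 2 of the 24 passed the test, where 21.3% of all genes did. Cbx1, which encodes the heterochromatin protein HP1 beta, was lower in D2 at a mean of 22.7 CPM against 49.3 CPM in B6 (log2 difference -1.12), and the deacetylase Hdac1 was lower at 33.7 against 41.8 CPM. Trim28 was at 142 CPM in D2 and 133 CPM in B6, and Setdb1 at 62.5 and 63.9 CPM, and neither passed. In B6 KD only Uhrf1, a reader of hemimethylated DNA, passed, at 2.82 CPM against 1.26 CPM in Ctrl. Of all genes 2.64% passed in this comparison. Hp1bp3, itself on the list, did not pass in B6 (log2 difference -0.54 ± 0.15 (SE, edgeR adjusted p = 0.0760)). The summed level of the 24 was 3017 to 3123 CPM in B6 KD and 3356 to 3682 CPM in B6 Ctrl, Hp1bp3 included. In D2 the sums overlapped, at 3297 to 3434 CPM in KD and 3338 to 3515 CPM in Ctrl.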

How the data were processed

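Hippocampal mRNA of 12 mice was sequenced, 3 libraries for each strain and treatment, grouped by the labels. Per the labels RNA came from whole hippocampus at least 6 weeks after injection. All samples were sequenced again and runs were joined for most. The authors aligned the reads of each mouse to its own strain's genome and deposited expected counts, the RSEM estimates of reads per gene, which are not normalized. The submitters' processing notes name RSEM 1.2.12, Bowtie2 2.2.0 and the builds GRCm38 and mm10. The authors' normalized counts were not used here.

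Expected counts were rounded, scaled by TMM and filtered with filterByExpr. The tests were quasi-likelihood F-tests (edgeR 4.0.16 in R 4.3.3, older method, robust) in 1 fit of the 4 group means. P-values were adjusted by Benjamini-Hochberg over all 15853 genes. The approximate SE was derived from each log2 fold change and its F statistic. CPM uses TMM library sizes. Each library is from 1 mouse, and replicate numbers follow the order of deposit. In the 12 pairs of libraries of a group, a chi-square over genes was 23.4 to 110 times its degrees of freedom, so none is a copy of another.

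Positions, exon lengths, fingers and KRAB boxes come from GENCODE release M21, in place of the RefSeq proteins planned. A finger is 2 cysteines and 2 histidines with 12 residues between the pairs. A KRAB box is a score of at least 30 bits against a 38-residue profile built from members that hold a strict pattern, with 15 bits as the alternative. Depth ran from 18.2 to 39.4 M counts, and the chi-square values above show a spread between libraries beyond counting error. The members, lists and rules were chosen with earlier results of these data known. Named members were those called for knockdown or the 4 smallest p-values, the 8 largest strain differences each way without overlap, the 6 highest per kb, the 3 on each side of the mean count of 100, the fixed list of 20, and the clusters with most members, where a tie gave 3 clusters. Alternatives were DESeq2 1.42.0, limma-voom (limma 3.58.1), median-ratio scaling, no low-count filter, the newer quasi-likelihood method, no robust estimation, library total or choroid plexus score as a covariate, and each library left out. The fit was tested on simulated data.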

Additional observations from a re-analysis of the deposited data

How the results depend on the processing

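The number of members called between the strains ran from 76 to 98 over all alternatives against 86. The number of all genes called moved as well, from 2916 without B6 Ctrl 2 to 3896 with DESeq2, against 3379. The 16 members with the largest strain differences were called under every alternative. Of the other strain calls named, Zfp207, Zfp74 and Zfp940 were lost when single libraries were left out. The knockdown calls depended on the settings. Averaged over the strains 0 members were called, but DESeq2 called 8, and leaving out 1 library gave 0 to 4. The shares of all genes called were 7.83% with DESeq2 and 0% to 4.97% when 1 library was left out. In B6 2 were called, against 1 with no low-count filter, 11 by DESeq2, 0 with the library total as a covariate, 0 with the choroid plexus score as a covariate, and 0 to 4 when 1 library was left out. Neither covariate fit called any gene of any kind in B6. Of all genes DESeq2 called 10.6% there, and leaving out 1 library gave 0% to 4.94%. In the interaction and in D2 every alternative gave 0 calls. No fold change changed sign among the 46 results followed over the alternatives, each a member in the comparison for which it was named. The small D2 difference of Zfp521 was not among them. The median over members in B6 stayed below 0 under every alternative, whereas in D2 it was -0.03 and turned to 0.01 without D2 Ctrl 2, with 141 of 309 members below 0 against 187. No paired analysis was possible because replicate numbers follow the order of deposit. The number of members without overlap and the KRAB counts (170 at the looser score) held. The causes of these shifts were not tested.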
